A study of Rattus norvegicus with 10 samples.

Results

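The genes described here encode ATP-binding cassette (ABC) transporters that export drugs and conjugated metabolites from cells. They were the multidrug resistance-associated proteins Abcc1, Abcc2, Abcc3, Abcc4 and Abcc5, the P-glycoprotein genes Abcb1a and Abcb1b, and Abcg2. Members were all probe sets that the platform annotation gave to 1 of these 8 symbols and to no other gene. This found 9 of the 31042 probe sets tested, for 7 of the 8 genes. Abcc5 and Abcb1a had 2 probe sets each. Abcb1b had none of its own: 1 probe set, 1370583_s_at, is annotated to both Abcb1a and Abcb1b and was not counted as a member.

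DMPT is N,N-dimethyl-p-toluidine, an aromatic amine that speeds the setting of acrylic resins. Male F344/N rats, 5 to 6 weeks old when the study began, were gavaged for 5 consecutive days with DMPT in corn oil at 120 mg/kg/day. The vehicle rats received corn oil without DMPT, so both groups were gavaged and shared strain, sex and diet. Transitional epithelium, which lines the nose between its squamous and ciliated zones, was cut out by laser capture, and each of 5 DMPT and 5 vehicle arrays came from its own animal. RNA from captured cells was amplified before labelling, and cells next to the epithelium can be caught with it. Each value below is a log2 expression value of 1 probe set on 1 array. A difference of 1 is a doubling of signal. Vehicle replicate 2 stood apart, with a mean correlation of 0.975 to the other vehicle arrays, where the other 4 had 0.985 to 0.986; exporter values without it are given where they bear on a result.

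ABC exporters bind and split ATP to push their cargo across the plasma membrane. After a reactive compound has been joined to glutathione, glucuronide or sulfate, the conjugate is too polar to diffuse out and needs such a pump, a step often called phase III of xenobiotic metabolism. Pumps differ in which face of an epithelial cell they serve: Abcc2, Abcb1a, Abcb1b and Abcg2 act on the luminal side of liver, gut and kidney cells, and Abcc1 and Abcc3 on the side that faces blood. In mouse liver the stress-responsive transcription factor NRF2 (Nfe2l2) raises Abcc2, Abcc3 and Abcc4. The comparison of DMPT with vehicle asks whether the export step moved in this epithelium at the end of dosing.

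After DMPT, Abcc3 and Abcc4 rose, by 0.89 and 0.48 log2 units, which is 1.85-fold and 1.40-fold. A probe set of Abcc5 fell by 0.83 log2 units, and the other probe set of that gene did not pass the test. Abcc1, Abcc2, Abcb1a and Abcg2 did not pass. With each gene represented by the probe set of highest mean, 2 of 7 exporters were higher and 0 lower at an adjusted p of at most 0.05 in limma. Among all 14217 genes, 7.13% were higher and 6.77% lower by the same rule. At an unadjusted p under 0.05 the exporter counts were also 2 higher and 0 lower, and 13.7% of all genes were higher and 14.5% lower. The median difference of the 7 genes was 0.44, and that of all genes was -0.0052. With only 7 genes, these figures are a description. In captured tissue, fewer cells of a type and less RNA per cell cannot be told apart.

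**Figure D1:**
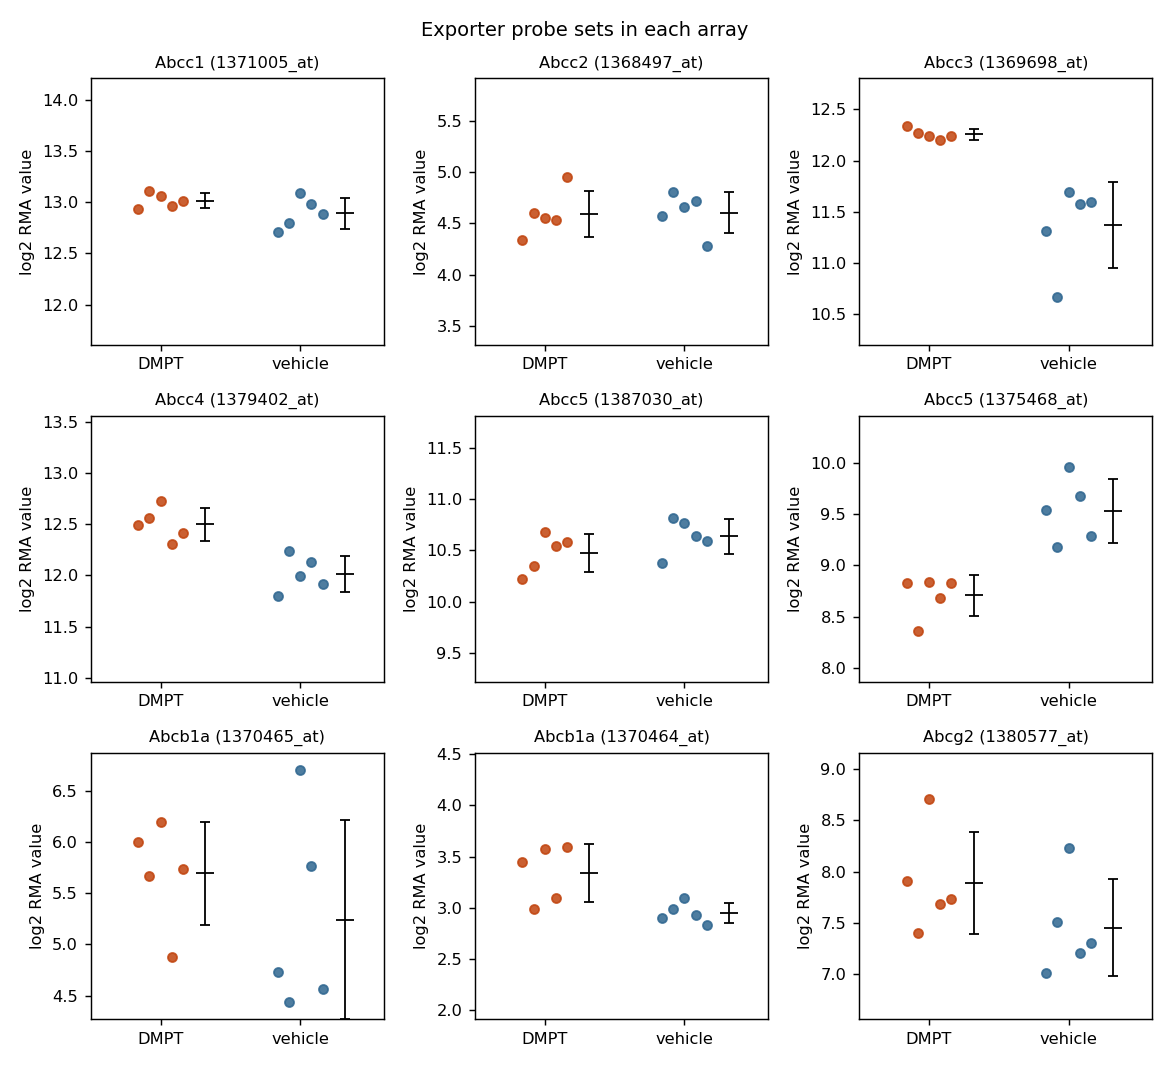
Log2 value of each of the 9 exporter probe sets (vertical axis) in the 5 DMPT arrays and the 5 vehicle arrays. Points are single animals in replicate order and bars are the mean and SD; every panel spans the same number of log2 units. The groups are apart for Abcc3, Abcc4 and Abcc5 probe set 1375468_at and overlap in the other 6 panels.

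Abcc3 encodes a pump for glucuronide conjugates and bile acids. Its log2 values were 12.34, 12.27, 12.24, 12.20 and 12.24 in DMPT replicates 1 to 5, against 11.31, 10.66, 11.70, 11.57 and 11.60 in vehicle replicates 1 to 5. All 5 DMPT arrays lay above all vehicle arrays. The DMPT arrays lay within a narrow band, and vehicle replicate 2 was the lowest of all. Means were 12.26 ± 0.053 with DMPT and 11.37 ± 0.42 with vehicle (SD, n = 5 each). The difference was 0.89 ± 0.17 log2 units (standard error; 95% confidence interval 0.51 to 1.26; limma adjusted p = 0.00688). Vehicle replicate 2 also had the highest 3' minus 5' ratio of control transcripts among the vehicle arrays, a sign of shorter RNA. Without that array the Abcc3 difference was 0.71 (adjusted p = 0.000764). With the ratio as a covariate it was 0.71 (adjusted p = 0.0412). The ratio averaged 1.10 ± 0.19 with DMPT and 1.28 ± 0.13 with vehicle (SD, n = 5 each; two-sided exact permutation p = 0.143, where 0.00794 is the smallest possible).

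Abcc4 encodes a pump for cyclic nucleotides, prostaglandins, urate and some glucuronide and sulfate conjugates. It had log2 values of 12.49, 12.56, 12.72, 12.30 and 12.41 in DMPT replicates 1 to 5, against 11.80, 12.24, 11.99, 12.13 and 11.91 in vehicle replicates 1 to 5. The groups did not overlap, with the lowest DMPT array just above the highest vehicle array. Means were 12.50 ± 0.16 with DMPT and 12.01 ± 0.17 with vehicle (SD, n = 5 each), and the difference was 0.48 ± 0.11 (95% confidence interval 0.24 to 0.73; limma adjusted p = 0.0170). Over all probe sets, the groups did not overlap for 11.0%, and 11.1% were called, 5.37% higher and 5.74% lower. Among the 9 exporter probe sets, 3 had groups that did not overlap, 2 of them higher and 1 lower, and the same 3 were called.

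The start region of Abcc4 is shown because it is the called exporter for which the RefSeq promoter table (GRCr8) holds a window, of 250 bases before and 50 from the start onward. The Abcc2 window is set beside it as that of the other conjugate pump ascribed to NRF2. Windows were found for 6 of the 8 listed genes, all but Abcc3 and Abcc5. Abcc4 lies at chr15:102181315-102181614 on the minus strand and Abcc2 at chr1:252613625-252613924 on the plus strand, both 5′ to 3′. Capitals mark letters that match a searched motif on either strand.
Abcc4: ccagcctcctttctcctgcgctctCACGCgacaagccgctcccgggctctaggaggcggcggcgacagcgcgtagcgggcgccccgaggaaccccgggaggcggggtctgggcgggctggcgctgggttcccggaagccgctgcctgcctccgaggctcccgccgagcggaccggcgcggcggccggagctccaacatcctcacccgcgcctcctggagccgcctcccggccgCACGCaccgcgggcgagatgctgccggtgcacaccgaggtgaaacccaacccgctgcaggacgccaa
Abcc2: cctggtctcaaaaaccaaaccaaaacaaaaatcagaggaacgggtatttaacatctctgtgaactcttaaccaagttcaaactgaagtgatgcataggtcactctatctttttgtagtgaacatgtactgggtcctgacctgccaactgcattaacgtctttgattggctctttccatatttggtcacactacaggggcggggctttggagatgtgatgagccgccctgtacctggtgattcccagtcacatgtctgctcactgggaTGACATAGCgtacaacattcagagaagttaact
Motifs searched were the antioxidant response element core TGACNNNGC, to which NRF2 binds with a small Maf protein, the xenobiotic response element core GCGTG of the aryl hydrocarbon receptor, and the AP-1 site TGANTCA. The first and last of these can overlap, and no match in the members did. Of 33469 rat windows, 12.1% held the first, 29.7% the second and 7.33% the third. The Abcc4 window held 2 matches to GCGTG, both on the opposite strand, so that they read CACGC as printed, starting at -226 and -17 with the start base counted as 0. The Abcc2 window held 1 match to TGACNNNGC, TGACATAGC, at 17 to 25. Abcc1 and Abcg2 had 1 match to GCGTG each, Abcb1a had 1 match to TGANTCA, and Abcb1b had none of the 3. The Abcc4 window is 75.3% G and C against a median of 51.7% over all windows, and a short motif rich in G and C is likelier there. A match is a description of letters only.

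Abcc5 encodes a pump for cyclic nucleotides and nucleotide analogs, and its probe sets gave different results. Probe set 1375468_at had log2 values of 8.83, 8.36, 8.83, 8.68 and 8.83 in DMPT replicates 1 to 5, against 9.54, 9.18, 9.96, 9.68 and 9.29 in vehicle replicates 1 to 5. All 5 DMPT arrays lay below all vehicle arrays, and the difference was -0.83 ± 0.15 (95% confidence interval -1.16 to -0.49; limma adjusted p = 0.00584). Probe set 1387030_at, which had the higher mean and so stood for the gene, had values of 10.22, 10.35, 10.68, 10.54 and 10.58 with DMPT, against 10.38, 10.82, 10.77, 10.64 and 10.59 with vehicle. Those groups overlapped, with a difference of -0.16 ± 0.12 (95% confidence interval -0.42 to 0.095; limma adjusted p = 0.452).

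Within each array, the log2 value of 1375468_at minus that of 1387030_at was lower by 0.66 with DMPT (two-sided exact permutation p = 0.0159 over 252 labelings; p = 0.0159 adjusted over 2 within-array contrasts, the other of which set Abcc2 against Abcc3). The gap ran from -1.99 to -1.39 in DMPT arrays and from -1.63 to -0.80 in vehicle arrays, so the groups overlapped. This test was chosen after the values were seen. It restates the unequal differences of the probe sets that led to its choice, so its p is a description and not separate support. Which part of the Abcc5 transcript each probe set reads was not analysed here. With the mean of both probe sets in place of the brighter one, the Abcc5 difference was -0.49 (adjusted p = 0.0143), and Abcc5 then counted as lower. Of 3890 genes with several probe sets whose brightest was not called, 246 (6.32%) had another probe set called.

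**Figure D2:**
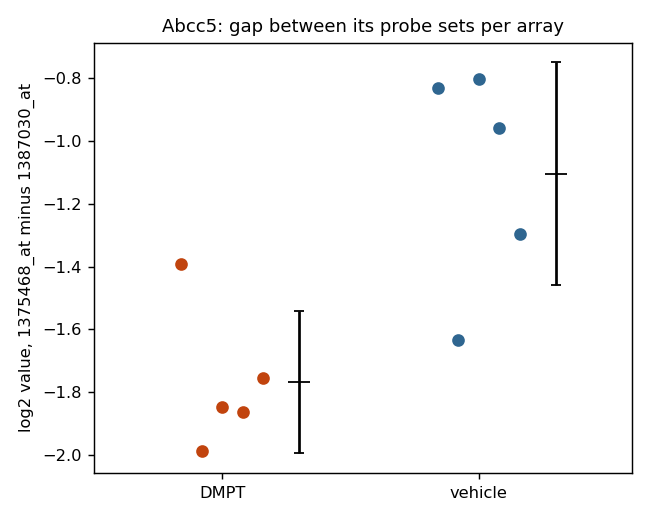
Log2 value of Abcc5 probe set 1375468_at minus that of 1387030_at (vertical axis) in the 5 DMPT and 5 vehicle arrays. Points are arrays and bars the mean and SD; the gap ran from -1.99 to -1.39 in DMPT arrays and from -1.63 to -0.80 in vehicle arrays.

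Abcc1 encodes the broad pump for glutathione conjugates. It was bright in both groups, with values of 12.94, 13.11, 13.06, 12.96 and 13.01 with DMPT, against 12.71, 12.79, 13.09, 12.98 and 12.88 with vehicle. The groups overlapped over most of their range. The difference was 0.12 ± 0.093 (limma adjusted p = 0.467), and its 95% confidence interval ran from -0.079 to 0.33.

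Abcc2 encodes the pump that moves glutathione and glucuronide conjugates into bile and urine. Its values were 4.34, 4.60, 4.55, 4.53 and 4.95 with DMPT, against 4.57, 4.80, 4.66, 4.71 and 4.28 with vehicle. All 10 lay below the lower quartile of their array, which was between 6.38 and 6.51, so the probe set was near background in both groups. The difference was -0.012 ± 0.13 (95% confidence interval -0.30 to 0.27; limma adjusted p = 0.972). A change in Abcc2 transcript below what this probe set can register was not detectable here. For the same reason no difference in response between Abcc2 and Abcc3 was read from these arrays.

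P-glycoprotein expels neutral and cationic drugs and guards the endothelium of the brain as well as epithelia. Rats carry it as the neighbouring genes Abcb1a and Abcb1b on chromosome 4. Abcb1a probe set 1370465_at had values of 6.00, 5.67, 6.19, 4.87 and 5.74 with DMPT, against 4.73, 4.44, 6.70, 5.76 and 4.56 with vehicle. The vehicle arrays were widely spread, and vehicle replicate 3 was the highest of all 10. The difference was 0.45 ± 0.41 (95% confidence interval -0.45 to 1.35; limma adjusted p = 0.561), and 9 of 10 values lay below the lower quartile of their array. Omitting vehicle replicate 3 gave 0.82, omitting vehicle replicates 2 or 5 gave 0.25 or 0.29, and weighting the arrays gave 0.10, with adjusted p from 0.128 to 0.914 over these 4 fits.

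The second Abcb1a probe set, 1370464_at, was still dimmer, with values of 3.44, 2.99, 3.58, 3.10 and 3.60 with DMPT, against 2.90, 2.99, 3.09, 2.93 and 2.83 with vehicle. DMPT values were above all vehicle values in 4 of 5 arrays. The difference was 0.39 ± 0.13 (95% confidence interval 0.11 to 0.67; limma adjusted p = 0.0780), and without DMPT replicate 2 it was 0.48 (adjusted p = 0.0339). All 10 values lay below the lower quartile of their array. The probe set shared by Abcb1a and Abcb1b had values from 6.40 to 6.59 with DMPT and from 6.20 to 6.48 with vehicle, and a difference of 0.14 ± 0.089 (limma adjusted p = 0.386). It cannot be assigned to either gene, so no value is given for Abcb1b.

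Abcg2, the breast cancer resistance protein, exports sulfate conjugates and urate. It had values of 7.91, 7.40, 8.71, 7.69 and 7.73 with DMPT, against 7.01, 7.51, 8.23, 7.20 and 7.30 with vehicle. Replicate 3 was the highest array of each group, and the groups overlapped. Abcg2 lay above the array median in 1 of 10 arrays and below the lower quartile in 0. The difference was 0.44 ± 0.26 (95% confidence interval -0.14 to 1.01; limma adjusted p = 0.348). Leaving out DMPT replicate 3 gave 0.23, and leaving out vehicle replicate 3 gave 0.63. The interval of Abcg2 holds the estimate for Abcc4, so these data do not separate an Abcg2 rise of that size from none.

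The arrays labelled replicate 3 had the highest value of their group for 5 of the 9 exporter probe sets with DMPT and for 6 of 9 with vehicle. Abcb1a and Abcg2 are also expressed by blood vessel endothelium. The mean log2 level of 18 endothelial markers was 8.30, 7.59, 8.51, 7.92 and 7.92 in DMPT replicates 1 to 5, against 7.37, 6.96, 7.75, 6.94 and 7.06 in vehicle replicates 1 to 5. Replicate 3 was again the highest of each group. It was also the lowest of each group in the mean level of 8 ciliated cell markers (8.98 with DMPT, 10.40 with vehicle). Vehicle replicate 1 came next in endothelial level among vehicle arrays, yet had the lowest Abcg2 value of them (7.01). Of the 18 endothelial markers 10 rose and 0 fell in limma (13 and 1 at an unadjusted p under 0.05), and 14 of 18 lay below the median probe set. Among all genes, 7.13% rose and 6.77% fell (13.7% and 14.5% unadjusted). The vascular receptor gene Kdr rose by 2.06 ± 0.38 log2 units (limma adjusted p = 0.00563; 1.10 with the mean of its probe sets, adjusted p = 0.00477), and the adhesion molecule gene Pecam1 rose by 1.15 ± 0.17 (limma adjusted p = 0.00160). The part of endothelial RNA in the Abcg2 and Abcb1a values was not tested.

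The basal keratin gene Krt5 averaged 13.18 with DMPT and 12.58 with vehicle, and the cilia regulator gene Foxj1 averaged 11.33 with DMPT and 12.21 with vehicle. The Foxj1 difference was called (limma adjusted p = 0.0426) and kept its call in 8 of 17 alternative fits. Of 13 basal and squamous markers 5 rose and 0 fell (7 and 0 at an unadjusted p under 0.05), with list levels of 9.71 to 10.33 in DMPT arrays and 8.78 to 9.00 in vehicle arrays, and 6 of the 13 lay below the median probe set. Those 5 were Krt5, Ngfr, Sfn, Krt4 and Sprr1a, with the largest differences in Krt4 and Sprr1a (3.09 and 4.81). Krt14, Krt15 and Tp63 differed by 0.096, 0.14 and 0.17 and did not pass. Of 8 ciliated cell markers 7 fell and 0 rose (8 and 0 unadjusted), with levels of 8.98 to 10.64 in DMPT arrays and 10.40 to 11.74 in vehicle arrays. The leukocyte marker Ptprc differed by -0.18 ± 0.21 (limma adjusted p = 0.665), and 4 of 19 leukocyte markers rose and 0 fell (4 and 1 unadjusted). Those 4 were Cd68, C1qa, C1qb and C1qc, with differences of 0.87, 0.59, 0.72 and 0.61. In the other lists, limma called 1 secretory marker higher and 5 lower of 12 (2 and 6 unadjusted), 0 sustentacular and Bowman gland markers higher and 4 lower of 10 (0 and 5 unadjusted), 1 olfactory neuron marker higher and 2 lower of 9, 1 stromal or mural marker higher and 0 lower of 12 (2 and 0 unadjusted), and 0 of 7 mast cell markers (0 and 1 unadjusted). Among all genes, 7.13% rose and 6.77% fell (13.7% and 14.5% unadjusted). The values given are transcript levels of markers, and cell proportions were not measured. Whether the Abcc3, Abcc4 and Abcc5 differences came with the differences of the epithelial markers was not tested.

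The rest of the ABC family was read for comparison. Of 33 other ABC transporter genes, 1 rose and 2 fell, where 7.13% of all genes rose and 6.77% fell. At an unadjusted p under 0.05 the counts were 4 and 5 of 33, against 13.7% and 14.5% of all genes. These counts are not read as a result about the family. The median difference of the 33 genes was -0.0078. Abcb4, the phospholipid exporter of liver and next relative of P-glycoprotein, rose by 0.68 ± 0.15 (limma adjusted p = 0.0128). Its values were 8.27, 8.31, 8.21, 8.32 and 7.79 with DMPT, against 7.81, 7.37, 7.51, 7.70 and 7.13 with vehicle, with DMPT replicate 5 inside the vehicle range. Cftr, the chloride channel that hydrates airway surfaces, fell by 0.49 ± 0.14 (limma adjusted p = 0.0434), and the call was kept in 6 of 17 alternative fits. Of the fits that left out 1 array, those without DMPT replicate 5 and without vehicle replicate 4 kept it, and the others gave adjusted p from 0.0606 to 0.100. Abcg3l1, whose product is little described, fell by 1.10 ± 0.25 (limma adjusted p = 0.0170), and its values reached 7.22 at most with DMPT and 7.34 at least with vehicle. With the RNA ratio in the fit its difference was -0.69 (adjusted p = 0.0623).

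Abcb6, a porphyrin transporter, had a difference of 0.86 ± 0.26 and an adjusted p of 0.0540 in limma. Its groups did not overlap, with 11.14 to 11.58 in DMPT arrays and 9.35 to 10.87 in vehicle arrays. Without vehicle replicate 2, its lowest array, the difference was 0.57 (adjusted p = 0.00365). Abcc6, an ATP-releasing member of the Abcc branch, differed by 0.062 ± 0.12, and the cholesterol exporters Abca1 and Abcg1 by -0.25 ± 0.15 and -0.16 ± 0.10, and none of these passed. Another probe set of Abca1 was called lower (-0.53, limma adjusted p = 0.0392).

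**Figure D3:**
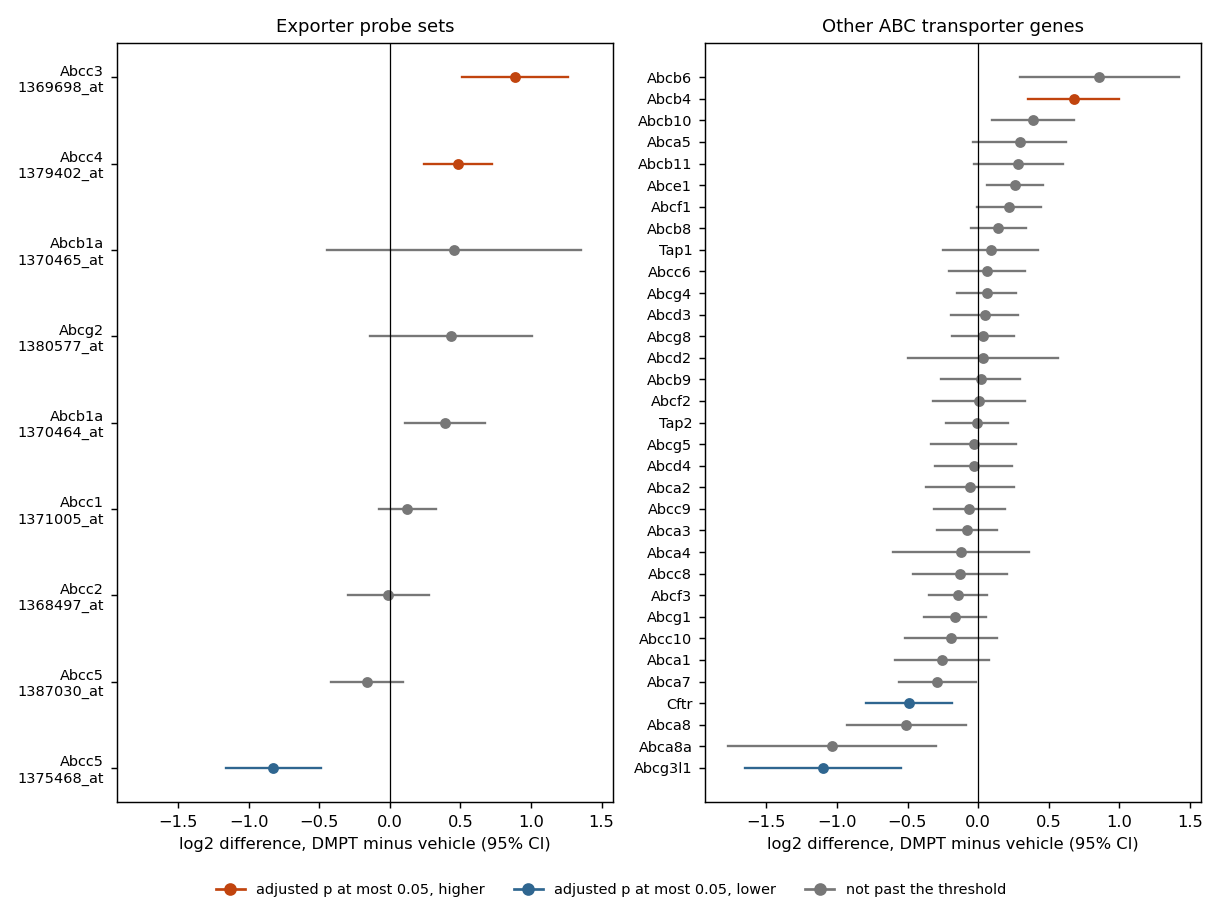
Log2 difference, DMPT minus vehicle, with its 95% confidence interval (horizontal axis) for the 9 exporter probe sets (left) and the 33 other ABC transporter genes (right). The intervals of Abcc3, Abcc4 and Abcb1a 1370464_at lie to the right of 0, the last at 0.11 to 0.67 with an adjusted p of 0.0780, and that of Abcc5 probe set 1375468_at lies to the left. The intervals of Abcb1a 1370465_at and Abcg2 are wide and hold 0.

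Genes that make or process the cargo of these pumps were read next, and some of them had larger differences than the exporters. Of 19 measured genes of glutathione synthesis and of the mercapturate pathway, which trims glutathione conjugates for excretion, 7 rose and 2 fell. Among all genes, the shares were 7.13% and 6.77%. At an unadjusted p under 0.05 the counts were also 7 and 2, against 13.7% and 14.5% of all genes. The median difference of the 19 genes was 0.15. The cystine importer gene Slc7a11 rose 17.4-fold. Ggt1, which cleaves the glutamyl group from glutathione and its conjugates outside the cell, was named after its value was seen and rose by 2.79 ± 0.23 log2 units (6.92-fold, limma adjusted p = 3.98e-05). Its values were 10.48, 11.40, 11.08, 11.04 and 10.37 with DMPT, against 7.89, 8.26, 8.51, 7.46 and 8.29 with vehicle, far apart in every array. The rate-setting glutamate-cysteine ligase subunits Gclm and Gclc rose 3.59-fold and 2.68-fold, against 1.85-fold for Abcc3. Ggt7 and the aminopeptidase gene Anpep fell, by 0.66 and 0.59 log2 units (limma adjusted p = 0.0139 and 0.0216). Both calls were lost once the RNA ratio entered the fit (adjusted p = 0.0617 and 0.0767), and that of Anpep without vehicle replicate 1 (adjusted p = 0.0505).

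Of 14 measured regulators of the pumps, 1 rose and 0 fell in limma (5 and 1 at an unadjusted p under 0.05, against 13.7% and 14.5% of all genes). It was Bach1, a repressor that competes with NRF2 for its sites, which rose by 0.67 ± 0.14 (limma adjusted p = 0.0121; 0.49 and adjusted p = 0.0633 with the RNA ratio in the fit). Nfe2l2 differed by 0.11 ± 0.11 (adjusted p = 0.619) and the aryl hydrocarbon receptor gene Ahr by 0.45 ± 0.14 (adjusted p = 0.0649). The small Maf gene Mafg differed by 0.48 ± 0.15 (adjusted p = 0.0614). Nr1i2, the pregnane X receptor that induces drug pumps in liver, differed by -0.11 ± 0.17 (adjusted p = 0.762). Its values ran from 5.62 to 6.20 with DMPT and from 5.54 to 6.42 with vehicle. These lay within or below the range of the array lower quartiles (6.38 to 6.51), so its probe set was near background.

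Luminal pumps are held in place by proteins that tie them to actin. Of 7 such anchor genes, the membrane-to-actin linker Msn rose by 0.56 ± 0.13 and the scaffold gene Nherf2 fell by 0.48 ± 0.13 (limma adjusted p = 0.0153 and 0.0369). Both calls were lost once the RNA ratio entered the fit (adjusted p = 0.0514 and 0.179), and that of Nherf2 also without DMPT replicates 1, 3, 4 or 5 or vehicle replicates 4 or 5 (adjusted p from 0.0622 to 0.0707). Rdx, which anchors Abcc2 in liver, differed by 0.18 ± 0.24 and did not pass; without vehicle replicate 2 its difference was -0.089. Of 18 solute carriers of organic ions, plotted as uptake transporters although Slc47a1 among them exports organic cations, 1 rose and 1 fell (2 and 3 at an unadjusted p under 0.05). Of all genes, 7.13% rose and 6.77% fell (13.7% and 14.5% unadjusted). The organic anion importer gene Slco1a5 fell by 0.70 ± 0.097 (limma adjusted p = 0.00102), with 11.63 to 12.01 in DMPT arrays and 12.49 to 12.68 in vehicle arrays. Slco3a1 rose by 0.62 ± 0.13 (limma adjusted p = 0.0106).

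**Figure D4:**
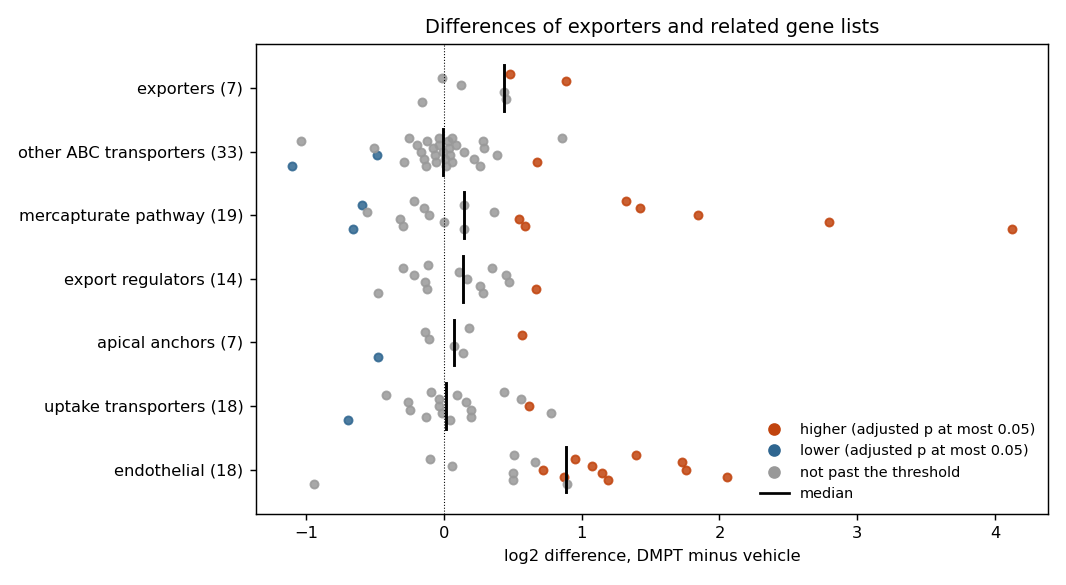
Log2 difference, DMPT minus vehicle (horizontal axis), of each gene in 7 lists, with 1 point a gene, coloured by the limma call, and the list's median as a bar; the number of genes is in brackets. The exporters lie between -0.16 and 0.89, and Slc7a11, Ggt1, Gclm, Gclc and Gsr of the mercapturate list lie further right.

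Genes with the most similar profiles over the 10 arrays were sought among 9012 genes above the median level. The closest to Abcc3 were the translation factor gene Eif4g1 (Pearson r = 0.996), the actin turnover gene Wdr1 (0.989) and the annexin gene Anxa7 (0.987). Their r over deviations from the group means was 0.988, 0.972 and 0.959, and vehicle replicate 2 stands apart in those deviations for Abcc3. The closest to Abcc4 were the flap endonuclease gene Fen1 (0.962), the glycine transporter gene Slc6a9 (0.955) and the transcription factor gene Foxq1 (0.950). The closest to Abcc5 probe set 1375468_at were the growth factor receptor gene Fgfr3 (0.970), Arhgef12 (0.951) and Ccbe1 (0.947). Points share array and treatment, and the 9 genes named are the closest of all those compared, so a high r follows in part from the search.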

How the data were processed

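The authors deposited RMA output, per the submitters' processing notes: background-corrected, distribution-equalised signals summarised over the probes of each probe set, in log2 units. No version or filter is given in the sources used here. The table held 31099 probe sets on 10 arrays; 57 control probe sets were set aside. Array medians ran from 8.21 to 8.35. Precision is limited by the number of arrays, since arrays have no read depth. Equal distributions hide any overall change in RNA amount.

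Symbols came from the platform annotation (20826 probe sets with 1, 436 with several, 9780 with none); 20758 Entrez identifiers matched RefSeq GRCr8, which changed 0 symbols. Those without exactly 1 symbol entered the fit unnamed. A gene was represented by its probe set with the highest mean.

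The fit used limma 3.58.1 under R 4.3.3, with an intercept and a treatment term (two-sided, Benjamini-Hochberg over 31042 probe sets, threshold 0.05). Differences are DMPT minus vehicle, with limma standard errors. ORIOGEN, named in the design text, was not run. The fit code was run on simulated arrays with independent noise of equal spread in both groups. That run does not test the calls described here. Arrays within a group came from separately numbered animals; shared cages were not modelled.

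All 8 exporters are described. Called other ABC genes, with Cftr, Abcc6, Abca1 and Abcg1, the 2 smallest p values of each other list, Nfe2l2, Nr1i2, Ahr, Rdx, Gclc and Gclm, and cell type markers were named by rule, of which only the markers that stand beside an exporter result are printed. Abcb6, Ggt1, Ggt7, Anpep and Gsr were named after their values were seen. So were the markers Ngfr, Sfn, Krt4, Krt14, Krt15, Tp63, C1qa, C1qb and C1qc, whose alternative fits are not given. Members and lists were chosen with earlier results of these data known. Alternatives were an intensity trend, array weights, a replicate block, a dimness filter, an RNA ratio covariate, median centring, probe set averaging and omission of each array.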

Additional observations from a re-analysis of the deposited data

How the results depend on the processing

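Abcc3 and Abcc4 were called higher in 17 of 17 alternative fits each, with adjusted p up to 0.0412 for Abcc3 and up to 0.0485 for Abcc4, and Abcc5 probe set 1375468_at was called lower in 16 of 16. Abcc1 and Abcg2 were called in 0 of 17 and Abcc2 in 0 of 16. Without each array in turn, called exporter probe sets numbered 2 to 3 higher and 1 to 1 lower, exporter genes 2 to 2 higher and 0 to 0 lower, other ABC genes 1 to 2 higher and 1 to 2 lower, and all probe sets 1137 to 2130 higher and 1022 to 1886 lower (fewest without DMPT replicate 3). With the mean of a gene's probe sets, 1 exporter gene, Abcc5, was lower. For other ABC genes, 2 were higher with the intensity trend, array weights or the dimness filter; 0 were lower when the RNA ratio was a covariate, and 1 with centred arrays. With the RNA ratio, all probe sets lower numbered 951. The difference of Abcc2 turned to 0.026 with array weights and 0.027 with centred arrays and ran from -0.10 to 0.052 without each array; that of Abcc6 ran from -0.010 to 0.13. That of Rdx was -0.024 with array weights, -0.12 with the RNA ratio, and from -0.089 to 0.28 without each array. The Abcc2 minus Abcc3 contrast ran from -1.04 to -0.67 without each array (exact p from 0.00794 to 0.0238); since Abcc2 was near background, it restates the Abcc3 change. Abcg3l1 with the RNA ratio was -0.69 (adjusted p = 0.0623). Causes were not tested.

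Replicate numbers are shared by the groups, but animals differ. Deviations of same-numbered arrays correlated at r between -0.067 and 0.23. Differently numbered arrays were not compared, so these values cannot show whether same-numbered arrays shared a batch. With a replicate block, Abcc3, Abcc4 and Abcc5 1375468_at kept their calls, and Cftr lost its own (-0.49, adjusted p = 0.0875). Mafg and the ABC gene Abca8a, named after its values were seen, gained one (0.48 and -1.04, adjusted p = 0.0366 and 0.0191, against 0.0614 and 0.0737 without the block). The other exporters and the other ABC and list genes named, each by its brightest probe set, changed no call. Nor did the markers Kdr, Pecam1, Krt5, Foxj1 and Ptprc. The Abcc2 minus Abcc3 contrast was -0.90 with an exact sign-flip p of 0.125. The planned Abcb1a minus Abcb1b contrast was not run, since Abcb1b had no probe set of its own. Signal over background limits Abcc2, Abcb1a, Abca8a and Nr1i2.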
